A study of Homo sapiens with 54 samples.

Results

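The expression of 10 cell cycle genes was followed in human pluripotent stem cells: the cyclins CCND1, CCND2, CCND3, CCNE1, CCNA2 and CCNB1 and the CDK inhibitors CDKN1A, CDKN1B, CDKN1C and CDKN2A. They were found on the array by the RefSeq accession of each probe, which gave 13 probes for these 10 genes out of 19716 genes named in this way. The study asked whether FGFC, a heat-stable chimera of FGF1 and FGF2, could take the place of bFGF in the culture of human ES and iPS cells. RNA of 27 cultures was hybridised, each on 2 arrays of 1 colour, and the mean of the 2 arrays is the value of a culture throughout. In the 4-day experiments, 3 in number, H1 ES cells in E8 (Essential 6 Medium with 2 ng/mL TGF-beta 1) were sampled before the start with 100 ng/mL bFGF (pre-culture) and after 4 days with 100 ng/mL bFGF, with 100 ng/mL FGFC or without FGF, 1 culture per arm and experiment. In long culture, 5 systems had 1 pre-culture, 1 bFGF and 1 FGFC culture each: H1 in E8 (30 days, 100 ng/mL, with the pre-culture of experiment 1), H1 in medium conditioned by mitomycin C-treated mouse embryonic fibroblasts (MEF-CM, 41 days, 5 ng/mL), KhES-1 ES cells on MEF feeders (30 days, 5 ng/mL), and the iPS lines 201B7 on MEF feeders (50 days, 10 ng/mL) and 253G1 in E8 (36 days, 100 ng/mL), both made from human dermal fibroblasts. A last culture was H1 differentiated through embryoid bodies without FGF (0 ng/mL), and its labels give neither a medium nor a passage. Each line is 1 line with no second isolate, and nothing in the labels says that cultures of a group began from separate stocks, so p-values measure the spread between these cultures only.

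Cyclins bind and activate cyclin-dependent kinases (CDKs), and their turn-over orders the cell cycle. D-type cyclins, which growth factors induce, work with CDK4 and CDK6 in G1. Cyclin E1 works with CDK2 at entry into S phase, cyclin A2 in S phase and G2, and cyclin B1 with CDK1 at mitosis. The inhibitors of the CIP/KIP family, p21 (CDKN1A), p27 (CDKN1B) and p57 (CDKN1C, an imprinted gene), bind cyclin-CDK complexes, whereas p16 (CDKN2A) binds CDK4 and CDK6. Pluripotent stem cells are known for a short G1 phase, for high cyclin E and for low p21 and p16, which rise when the cells differentiate. Much of the control of cyclins is at the level of protein degradation, which an mRNA array does not see.

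Promoter sequences of RefSeq (GRCh38.p14) were matched for 7 of the 10 genes, all but CCND1, CCND2 and CDKN1C. The 150 bases before the transcription start are shown for the 3 later cyclins, which were lower together in the differentiated culture, and for CDKN1A, which was higher there. Capitals mark the CCAAT box of NF-Y (CCAAT, or ATTGG on the other strand) and the GC box of SP1 (GGGCGG, or CCGCCC on the other strand), searched on both strands; the pair do not overlap each other.
CCNE1, chr19:29811841-29811990, plus strand: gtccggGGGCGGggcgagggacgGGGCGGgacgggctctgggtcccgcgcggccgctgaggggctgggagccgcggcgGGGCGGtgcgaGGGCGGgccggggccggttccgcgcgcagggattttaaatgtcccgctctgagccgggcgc
CCNA2, chr4:121823884-121824033, minus strand: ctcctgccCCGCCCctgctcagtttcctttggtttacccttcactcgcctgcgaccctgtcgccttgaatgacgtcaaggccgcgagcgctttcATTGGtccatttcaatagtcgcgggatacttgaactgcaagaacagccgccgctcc
CCNB1, chr5:69167000-69167149, plus strand: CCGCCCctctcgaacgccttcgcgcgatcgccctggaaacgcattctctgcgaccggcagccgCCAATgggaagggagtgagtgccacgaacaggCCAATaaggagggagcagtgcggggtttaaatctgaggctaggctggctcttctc
CDKN1A, chr6:36678564-36678713, plus strand: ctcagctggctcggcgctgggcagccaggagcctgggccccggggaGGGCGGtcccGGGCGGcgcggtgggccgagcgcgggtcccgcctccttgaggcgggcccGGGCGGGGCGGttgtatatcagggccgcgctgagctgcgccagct
The CCAAT letters stood once before CCNA2 and 2 times before CCNB1, and not in the windows of CCNE1 and CDKN1A. The GGGCGG letters stood 4 times before CCNE1 and 4 times before CDKN1A, with 1 pair overlapping in CDKN1A, and once before CCNA2 and CCNB1. Over 35116 promoters of the same length, 23.5% held the CCAAT letters and 36.8% held the GGGCGG letters. A match of letters is a description and not a binding site. The GC content of the windows was 80.7% for CCNE1, 58.0% for CCNA2, 62.0% for CCNB1 and 79.3% for CDKN1A.

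Signals are given as log2 of the processed signal minus the array's own 75th percentile, so that 0 is the 75th percentile and a difference of 1 is 2-fold. Levels of different probes were not set against each other. The share of probes well above background was 56.0 to 79.2% per array (median 67.5%), and the number of arrays limits the precision. The 75th percentile itself was 182 and 234 on the 2 arrays of the 201B7 pre-culture and at least 504 on all others. Of the 13 member probes, 11 were well above background on 54 of 54 arrays, the CDKN1A probe on 41 and the dimmer CDKN2A probe on 37. CCNB1, CDKN1B and CDKN2A each had 2 probes, of which the brighter one is meant unless stated. The dimmer CDKN2A probe carries the accession of the p16 transcript, and the brighter one that of another transcript of the gene. RNA of whole cultures was measured, so fewer cells of a type and less RNA per cell cannot be told apart.

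Across the 26 cultures other than the differentiated one, CDKN1A and CCND2 spanned the widest ranges of the 10 genes at their brighter probes. CDKN1A ran from -5.42 (no FGF, experiment 3) to -1.60 (H1 in MEF-CM with bFGF), with a median of -4.07. CCND2 ran from 0.23 (KhES-1 pre-culture) to 2.85 (H1 in E8, 30 days bFGF), with a median of 2.18. CDKN1C spanned 1.83, from 1.52 to 3.35, and CCNA2 1.76, from 0.59 to 2.35. The other 6 genes spanned 1.19 (CCND3) to 1.59 (CDKN1B). The dimmer CDKN2A probe spanned 3.48, from -5.33 to -1.86, more than the brighter one. Among systems, CCND2 was highest in H1 in E8 (2.72 ± 0.20, SD, n = 3 cultures), followed by 253G1 in E8 (2.38 ± 0.22), H1 in MEF-CM (1.95 ± 0.28), 201B7 (0.97 ± 0.44) and KhES-1 (0.72 ± 0.43), where each neighbour in this order but the pair of MEF-CM and 201B7 overlapped the next. The order of CDKN1C was KhES-1 (3.14 ± 0.29), H1 in MEF-CM (2.93 ± 0.12), 201B7 (2.45 ± 0.69), 253G1 (1.90 ± 0.22) and H1 in E8 (1.82 ± 0.34), and all neighbours overlapped.

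**Figure D1:**
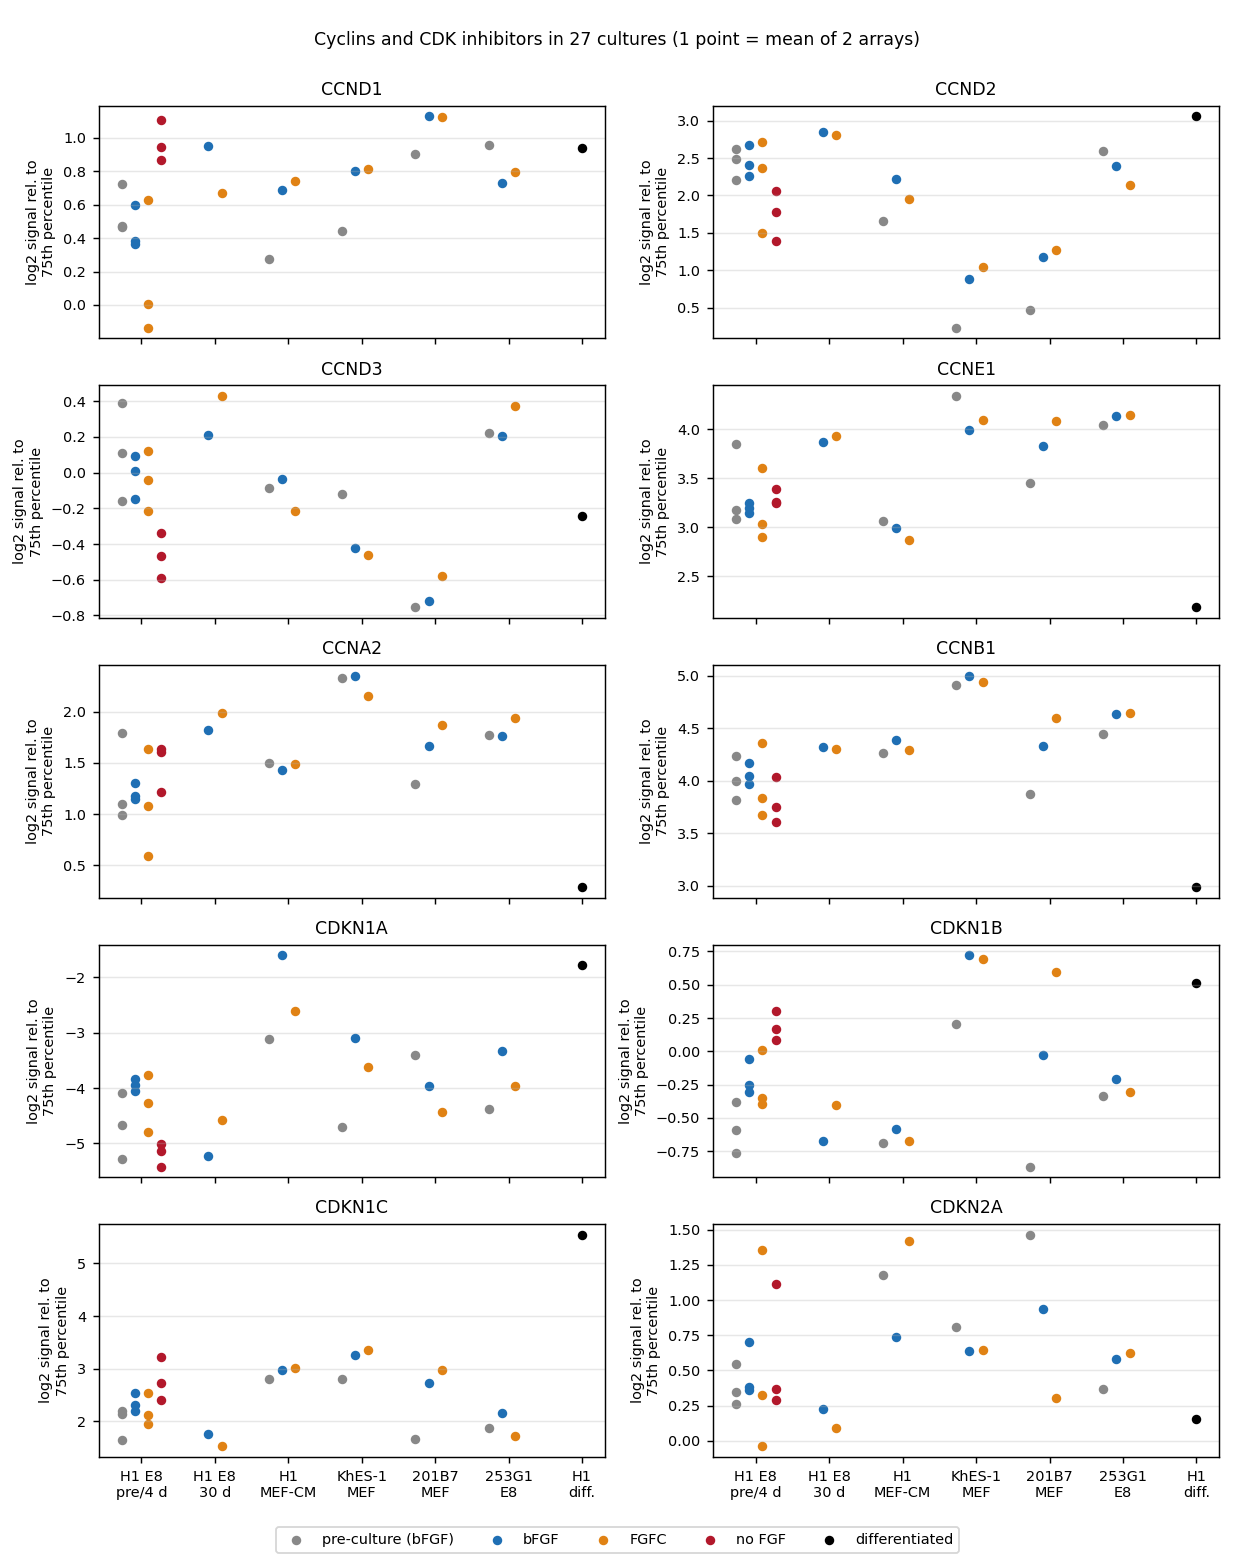
Log2 signal relative to the array's 75th percentile (y axis) of each of the 10 genes at its brighter probe in all 27 cultures, 1 point per culture (mean of 2 arrays), grouped along the x axis by condition. CDKN1A and CCND2 have the widest spans over the 26 undifferentiated-label cultures, and the differentiated culture stands highest for CDKN1C at 5.55.

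Removal of FGF for 4 days moved 1 of the 10 genes past the test against bFGF, CDKN1A, which fell, and 1 against FGFC, CCND1, which rose. Over all 42405 probes, 5.54% were called higher and 7.19% lower without FGF than with bFGF, and 4.72% higher and 6.07% lower than with FGFC, so that 1 of 10 is near the share of all probes. The 2 comparisons share the no FGF cultures. The median difference over the 10 genes was 0.11 against bFGF (0.01 over all probes) and 0.08 against FGFC (-0.02 over all probes).

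Among the D cyclins, CCND1 (cyclin D1, the partner of CDK4 and CDK6 most closely tied to mitogens) read 1.11, 0.94 and 0.87 without FGF in experiments 1, 2 and 3. It read 0.60, 0.36 and 0.38 with bFGF and 0.63, -0.14 and 0.01 with FGFC. All 3 cultures without FGF lay above all 6 with FGF for 4 days, and above the pre-cultures at 0.47, 0.46 and 0.72. Of the 30-day cultures of H1 in E8, the one with bFGF read 0.95, within the range without FGF, and the one with FGFC 0.67. The difference was 0.81 against FGFC (SE 0.21, 95% confidence interval 0.35 to 1.26, adjusted p = 0.0282, 1.75-fold), and 0.52 against bFGF (0.07 to 0.98, adjusted p = 0.134), which did not pass. Without experiment 2 or without experiment 3, the call against FGFC was lost (adjusted p = 0.318 and 0.342).

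CCND2, the most variable D cyclin here, read 1.39, 1.78 and 2.06 without FGF, 2.40, 2.26 and 2.68 with bFGF and 2.71, 1.5 and 2.37 with FGFC. The cultures without FGF lay below those with bFGF and overlapped those with FGFC, and the differences of -0.71 and -0.45 did not pass the test (adjusted p = 0.162 and 0.432). CCND3 read -0.34, -0.59 and -0.47 without FGF, below -0.15, 0.01 and 0.09 with bFGF and 0.12, -0.22 and -0.04 with FGFC. These groups did not overlap, yet the differences of -0.45 and -0.42 did not pass either (adjusted p = 0.142 and 0.189). CCND1 thus read higher and CCND2 and CCND3 lower without FGF than with bFGF in each of the 3 experiments, by 0.48 to 0.58, by -1.02 to -0.48 and by -0.60 to -0.19.

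The later cyclins did not pass the test. CCNE1 without FGF was 3.30 ± 0.08 (SD, n = 3), against 3.19 ± 0.05 with bFGF and 3.18 ± 0.37 with FGFC. CCNA2 was 1.49 ± 0.23 against 1.21 ± 0.08 and 1.10 ± 0.53. For CCNB1 the 2 probes went opposite ways: the difference from bFGF was -0.26 (-0.72 to 0.20) at the brighter probe and 0.42 (-0.01 to 0.85) at the dimmer one, so no direction can be given for the gene.

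Among the inhibitors, CDKN1A (p21) read -5.14, -5.01 and -5.42 without FGF, -4.06, -3.95 and -3.84 with bFGF and -4.79, -3.76 and -4.26 with FGFC. The pre-cultures, at -4.08, -4.67 and -5.28, spread over both. The difference was -1.24 against bFGF (SE 0.31, -1.93 to -0.55, adjusted p = 0.0237) and -0.92 against FGFC (-1.61 to -0.23, adjusted p = 0.0928). The probe is close to background: it was well above it on 6 of 6 arrays with bFGF, 3 of 6 with FGFC and 1 of 6 without FGF. With another background correction (normexp) the difference from bFGF was -0.23 (adjusted p = 0.326), and without experiment 2 or 3 it was -1.33 and -1.07 (adjusted p = 0.127 and 0.250).

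CDKN1B (p27) read 0.30, 0.09 and 0.17 without FGF, above all 6 cultures with FGF (-0.40 to 0.01), with differences of 0.39 and 0.43 that did not pass (adjusted p = 0.183 and 0.154). Its dimmer probe gave 0.14 and 0.29. CDKN1C (p57) read 3.21, 2.40 and 2.72 without FGF and 2.31, 2.53 and 2.20 with bFGF, so that the groups overlapped (difference 0.44, adjusted p = 0.315). CDKN2A differed from bFGF by 0.11 (-0.62 to 0.84) at its brighter probe. At its dimmer probe 1 culture without FGF, of experiment 2, read -2.76 and the other 2 read -4.75 and -5.14.

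**Figure D2:**
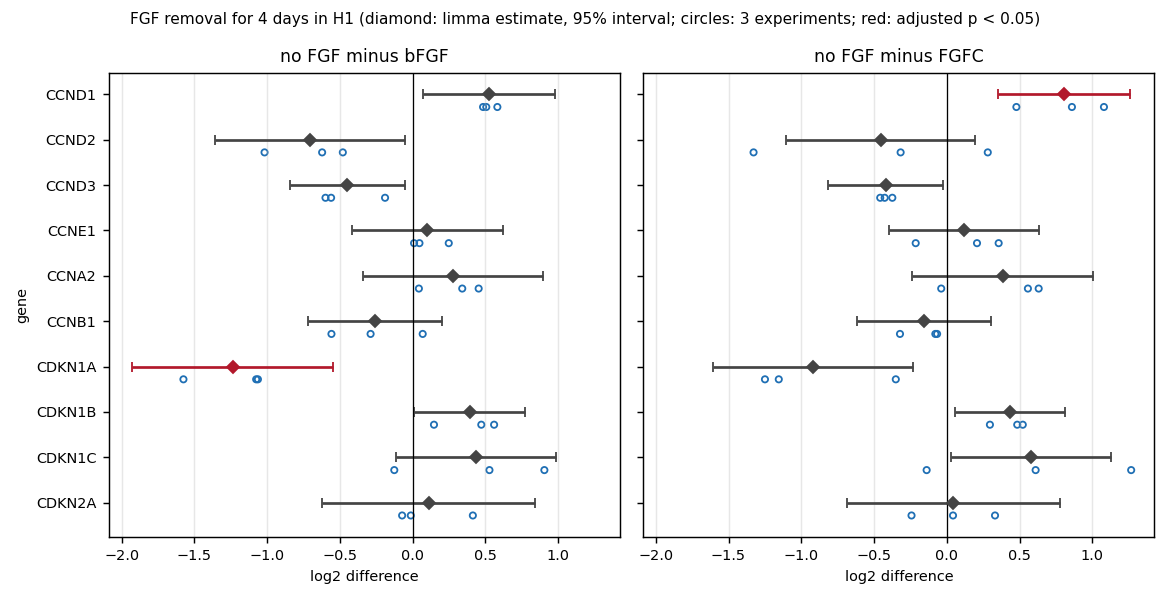
Log2 difference (x axis) of each of the 10 genes (y axis) at its brighter probe between H1 cultures without FGF and with bFGF (left) or FGFC (right) after 4 days. Diamonds are limma estimates with 95% confidence intervals, circles the 3 experiments, and red marks an adjusted p under 0.05, which CDKN1A (-1.24) reached on the left and CCND1 (0.81) on the right.

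Other genes of the cell cycle were counted list by list. Of 18 S phase genes 2 rose and none fell against bFGF: UHRF1, which couples DNA methylation to replication (1.25, adjusted p = 0.0118), and CDC6, a licensing factor (1.18, adjusted p = 0.00416). Of 13 pocket protein and E2F genes 3 rose, E2F7 (1.06), E2F8 (0.84) and E2F2 (0.81), and none fell. Of 9 cell cycle kinases and phosphatases CDK4 (0.79) and WEE1 (0.79), which restrains CDK1, rose and CDC25B (-0.52) fell. Of 18 G2 and M phase genes 1 fell, BUB1B of the spindle checkpoint (-0.62, adjusted p = 0.0317), and none rose. FZR1, an activator of the anaphase-promoting complex, was the 1 of 9 genes of cyclin turnover to pass (1.25), and of the 6 other cyclins CCNG2 was higher (1.15) and CCNB3 at least 1.66-fold lower, since it was not well above background on any array without FGF. None of the 4 other CDK inhibitors passed. Of 20 p53 target genes 2 rose (TP53I3 by 1.66, TP53INP1 by 0.73) and 3 fell (RRM2B by 2.09, SESN2 by 1.48 and PHLDA3 by 1.46). Of 9 genes neighbouring CDKN1C or CDKN2A 3 fell, KCNQ1OT1 (-1.42), MTAP (-0.89) and KCNQ1 (-0.87). Against FGFC, 3 S phase genes were higher (UHRF1 by 1.27, CDC6 by 0.99 and RRM1 by 0.67), 3 pocket protein and E2F genes, and 1 each of the kinases (WEE1, 0.85), the turnover genes and the other cyclins, none of these lists had a lower gene, and no G2 and M phase gene or other CDK inhibitor passed. Of the p53 target genes 3 were higher and 3 lower, and of the neighbours 3 were lower. The list medians against bFGF were 0.34 for the S phase genes, 0.15 for pocket proteins and E2F and -0.06 for the G2 and M phase genes, beside 0.01 over all probes.

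Markers of cell state moved with these arms. Of 8 pluripotency markers 3 were lower without FGF than with bFGF, CRIPTO (-3.32), NANOG (-1.71) and POU5F1 (-1.08), and SOX2 was higher (1.32), and their summed log2 level was 8.09 to 8.56 against 8.72 to 9.01. Of 16 differentiation markers 5 were higher (PAX6, ZIC1, ACTA2, TUBB3 and TBXT) and 2 lower (TNNT2, -2.65, and PDGFRB, -1.01), with a summed level of 4.79 to 5.11 against 3.37 to 3.71. PAX6, a neural transcription factor, was at least 37.7-fold higher and ZIC1 at least 7.28-fold higher, since neither was well above background with bFGF. SOX17, SOX1, KRT14, SOX7 and TBXT were not well above background in either arm. Of 10 fibroblast markers PDGFRA was higher (2.86) and THY1 lower (-1.70), and their summed level was 4.35 to 4.73 without FGF and 5.63 to 5.81 with bFGF, with LUM, DCN and FAP not well above background in either. The part of these shifts in the values of CCND1 and CDKN1A was not tested. The share of probes well above background was 59.6 to 66.5% per array without FGF, 66.1 to 72.8% with bFGF and 57.1 to 77.1% with FGFC.

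With FGFC in place of bFGF for 4 days, none of the 10 genes passed the test, and none had an unadjusted p under 0.05. Over all probes 0% were called by the adjusted p and 2.98% had an unadjusted p under 0.05. The differences ran from -0.32 (CDKN1A, -1.01 to 0.37) to 0.07 at the brighter probes, with CCND1 at -0.28 (-0.73 to 0.17) and a median of -0.10 (0.00 over all probes). The lower ends of these intervals leave room for differences of that size, so likeness was not shown for either gene. The spread with FGFC was wider: the SD of the FGFC cultures was 0.53 for CCNA2, 0.63 for CCND2 and 0.37 for CCNE1, against 0.08, 0.21 and 0.05 with bFGF, and this difference in spread was not tested.

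In long culture, FGFC against bFGF over the 5 systems again called none of the 10, and none had an unadjusted p under 0.05 at the brighter probes. Over all probes 0% were called and 5.98% had an unadjusted p under 0.05. CDKN1A lay furthest from 0, at -0.40 (SE 0.24, -0.96 to 0.17, adjusted p = 0.701). It was lower with FGFC in 4 of 5 systems, with differences of -0.46 in 201B7, -0.53 in KhES-1, -0.64 in 253G1 and a little past -1 in H1 in MEF-CM (-2.61 with FGFC, -1.60 with bFGF), and higher by 0.66 in H1 in E8 (-4.57 and -5.23). The other 9 genes ran from -0.06 (CCND2, -0.31 to 0.19) to 0.14 (CDKN1B, -0.19 to 0.46), and CCNE1, CCNA2 and CCNB1 were at 0.06, 0.08 and 0.02 with intervals that together run from -0.21 to 0.31. By the 2-fold rule of the study's methods, 1 of 50 gene and system pairs passed, CDKN1A in H1 in MEF-CM. In the same 1-to-1 comparisons the share of all probes past 2-fold was 3.15% in KhES-1, 4.38% in H1 in MEF-CM, 6.82% in H1 in E8, 6.98% in 253G1 and 6.16% in 201B7, with 1 culture per arm and no test. In H1 in E8, H1 in MEF-CM and KhES-1 the bFGF and FGFC arrays were on different slides, so slide and arm cannot be told apart there.

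Long culture against pre-culture likewise called none of the 10, with 0% of all probes called, while 12.2% of probes and 2 of the 10 genes, CCND2 and CCNB1, had an unadjusted p under 0.05. CCND2 was 0.39 higher after long culture (0.06 to 0.71, adjusted p = 0.395), up by 0.75 in 201B7 (0.47 before, 1.18 and 1.27 after), 0.73 in KhES-1 (0.23 before, 0.88 and 1.04 after), 0.43 in H1 in MEF-CM and 0.34 in H1 in E8, and down in 253G1 (2.59 before, 2.40 and 2.14 after). CCNB1 was 0.29 higher at the brighter probe (0.04 to 0.53, adjusted p = 0.395), in 5 of 5 systems. Its dimmer probe gave 0.13 (-0.13 to 0.40, unadjusted p = 0.294). That probe was higher in H1 in E8 (0.47) and 201B7 (0.49). It was lower in H1 in MEF-CM (-0.06), KhES-1 (-0.04) and 253G1 (-0.19), so the direction of CCNB1 depends on the probe. The inhibitors did not go one way. CDKN1A was higher after long culture by 1.35 in KhES-1, 1.01 in H1 in MEF-CM and 0.74 in 253G1, and lower in 201B7 (-0.80) and H1 in E8 (-0.82). CDKN1C differed by 1.18 in 201B7 and by -0.56 in H1 in E8. The 201B7 pre-culture is the culture with the dimmest arrays, and without 201B7 neither CCND2 (unadjusted p = 0.100) nor CCNB1 (unadjusted p = 0.0652) stayed under 0.05. CCND2 stayed under it only when 253G1 was the system left out, and CCNB1 only when H1 in MEF-CM or KhES-1 was.

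Whether the change in long culture differed between MEF-based and E8 systems was tested as an interaction. None of the 10 genes passed, 0.00236% of all probes did, and 13% of probes and 2 of the 10 genes had an unadjusted p under 0.05. These 2 were CCND2 (0.63, adjusted p = 0.381) and CDKN1C (0.87, adjusted p = 0.381). A value above 0 means that long minus pre-culture was higher in the MEF-based than in the E8 systems. Without 201B7 or without KhES-1, 1 of the 10 genes had an unadjusted p under 0.05, and without H1 in MEF-CM 3 had. For CDKN1C, long minus pre-culture was 1.18 in 201B7, whose pre-culture arrays were the dimmest, 0.50 in KhES-1 and 0.20 in H1 in MEF-CM.

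**Figure D3:**
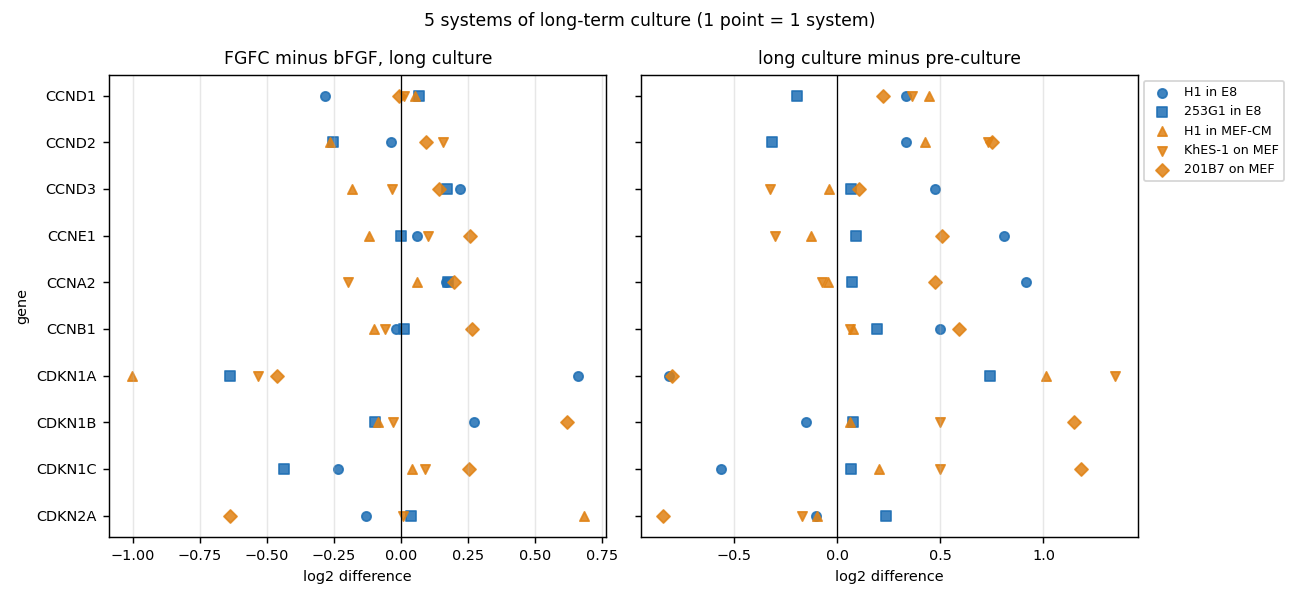
Log2 difference (x axis) for each of the 10 genes (y axis) of FGFC minus bFGF in long culture on the left, and of the mean of both long cultures minus pre-culture on the right, 1 point per system, with E8 systems in blue and MEF-based systems in orange. The FGFC differences of CDKN1A reach just past -1 in H1 in MEF-CM. The long-culture differences of CCNB1 lie above 0 in 5 of 5 systems at its brighter probe, the one drawn, but not at its dimmer probe.

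The medium was compared first over the 5 systems, 3 MEF-based and 2 in E8, where line and medium differ together except for H1, and where the FGF dose (5 or 10 ng/mL against 100 ng/mL) goes with the medium in every system and cannot be told apart from it. None of the 10 genes passed, 0% of all probes did, and 18.6% of probes and 2 of the 10 genes had an unadjusted p under 0.05. CCND2 was lower in the MEF-based systems, with a difference of -1.33 (-2.36 to -0.31, adjusted p = 0.229), and CDKN1C was 0.98 higher (0.16 to 1.80, adjusted p = 0.229). CDKN2A differed by 0.55 (-0.24 to 1.33) at its brighter probe. Its dimmer p16 probe was 1.84 higher (0.85 to 2.83, unadjusted p = 0.0027, adjusted p = 0.229). That probe was well above background on 0 of 6 arrays of H1 in E8 and 3 of 6 of 253G1, and on 6 of 6 in each MEF-based system. KhES-1 and 201B7 grew on mouse feeder cells, and the part of feeder RNA in their values was not tested. The summed log2 level of the fibroblast markers was 6.28 to 8.06 in 201B7 and 5.30 to 5.46 in KhES-1. It was 6.00 to 6.10 in H1 in MEF-CM, 5.58 to 5.87 in H1 in E8 and 5.95 to 6.10 in 253G1. Leaving out a system left 0 to 2 of the 10 genes with an unadjusted p under 0.05, 0 of them without H1 in E8, and none of the 10 was called. Without 253G1, 45 probes were called instead of 0. With the normexp background correction, CCND2 passed (-1.29, adjusted p = 0.0173). The system means of CCND2 did not overlap between media, but H1 in MEF-CM (1.95) lay nearer to 253G1 in E8 (2.38) than to KhES-1 (0.72).

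Within H1, the line being the same, 3 of the 10 genes were higher in MEF-CM than in E8 with FGF, and all 3 were CDK inhibitors: CDKN1A, CDKN1C and CDKN2A. None was lower. Of all probes 9.47% were called higher and 26.1% lower (4016 and 11055 probes), a split that became 4804 higher and 4881 lower with quantile normalisation, which moved the median of all probes by 0.12. The 3 MEF-CM cultures were set against 11 in E8, cultures of a medium share a lineage, and the slides of the MEF-CM arrays held no E8 culture, so slide and medium cannot be told apart. Nor can FGF dose and medium, since the MEF-CM cultures had 5 ng/mL and those in E8 100 ng/mL.

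CDKN1A read -3.12, -1.60 and -2.61 in the MEF-CM pre-culture, bFGF and FGFC cultures, all above the E8 range of -5.28 to -3.76 (median -4.26). The difference was 1.97 (SE 0.35, 1.22 to 2.71, adjusted p = 0.000729, 3.91-fold), and 0.81 with the normexp correction. The probe was well above background on 6 of 6 arrays in MEF-CM and 16 of 22 in E8. CDKN1C read 2.80, 2.98 and 3.02, above the E8 range of 1.52 to 2.54, a difference of 0.85 (SE 0.20, 0.42 to 1.28, adjusted p = 0.00457, 1.80-fold). CDKN2A read 1.18, 0.74 and 1.42 at the brighter probe, within reach of the highest E8 culture at 1.36 (FGFC, experiment 2), a difference of 0.70 (SE 0.23, 0.21 to 1.19, adjusted p = 0.0279), which did not pass without the FGFC culture in MEF-CM (adjusted p = 0.172) or without its pre-culture (adjusted p = 0.0987). At the dimmer probe, that of the p16 transcript, the values were -2.60, -2.88 and -1.86 against -5.33 to -4.21 in E8, a difference of 2.45 (SE 0.26, 1.91 to 3.00, adjusted p = 6.44e-06, 5.47-fold). That probe was well above background on 6 of 6 arrays in MEF-CM and 11 of 22 in E8.

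The fourth inhibitor did not pass: CDKN1B differed by -0.27 (-0.59 to 0.05) at the brighter probe and by 0.29 (-0.09 to 0.66) at the dimmer one, so its direction is not settled. No cyclin passed. CCND2 was at -0.50 (-0.99 to -0.01, adjusted p = 0.106), and passed when only the 3 E8 cultures of the long-term system were used (-0.77, adjusted p = 0.0364). CCNE1 was at -0.39 (-0.85 to 0.07), CCND3 at -0.18, CCND1 at 0.10, CCNA2 at 0.14 and CCNB1 at 0.25 (-0.07 to 0.57).

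**Figure D4:**
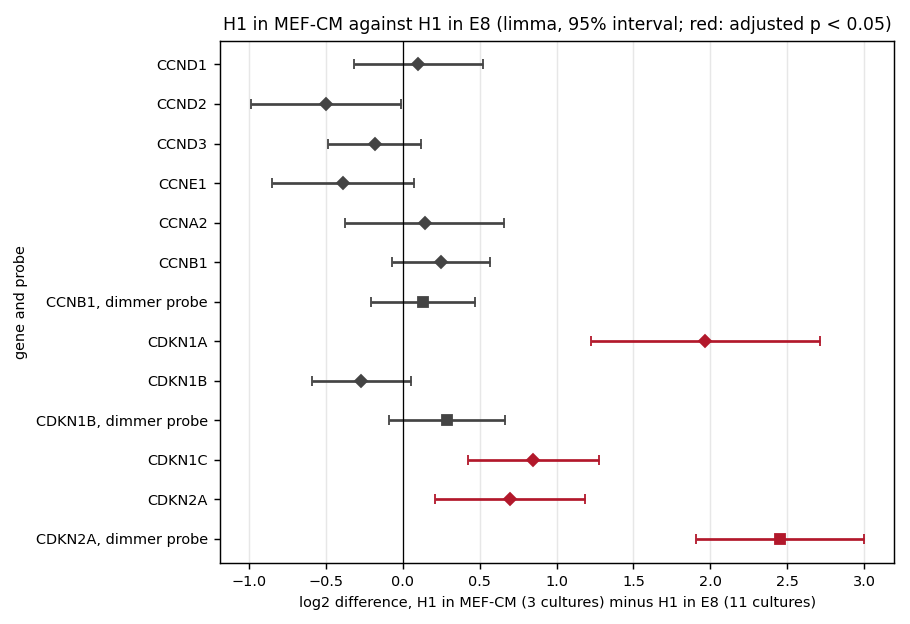
Log2 difference of H1 in MEF-CM (3 cultures) minus H1 in E8 with bFGF or FGFC (11 cultures) on the x axis for each member probe (y axis), with 95% confidence intervals from limma; diamonds are the brighter and squares the dimmer probe of a gene, and red marks an adjusted p under 0.05. The 4 red probes are those of CDKN1A, CDKN1C and CDKN2A, from 0.70 to 2.45.

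The other lists of the cell cycle showed the following between the media. Of 4 other CDK inhibitors, CDKN2D (p19, 0.76) and CDKN2B (p15) were also higher and none was lower; the E8 level of CDKN2B is mostly background (3 of 22 arrays well above it), so the size of its difference is not given. Of 20 p53 target genes 13 were higher and none lower, with a median of 0.90 (-0.15 over all probes), led by PHLDA3 (2.25), the death receptor FAS (1.93) and ZMAT3 (1.53). Of 18 G2 and M phase genes 6 were lower and none higher, led by TOP2A (-0.82), CENPE (-0.72) and BUB1 (-0.65). Of all probes 26.1% were lower, and the list median of -0.18 was close to the -0.15 over all probes. Of 18 S phase genes 1 was higher (MCM6, 0.51) and 1 lower (POLA1, -0.38). Of the kinases CDK6 (0.87) and WEE1 (0.81) were higher and CDC25B (-0.76) lower, of the turnover genes CKS1B (-0.58) and CKS2 (-0.49) lower, and of the other cyclins CCNE2 (1.00) higher. Of the 13 pocket protein and E2F genes RB1 (0.65) and E2F7 (0.55) were higher and E2F2 (-1.07) and RBL2 (-0.71) lower. Of the neighbours of CDKN1C and CDKN2A, PHLDA2 (1.92), IGF2 (1.45) and H19 (1.00) were higher and KCNQ1 (-1.78) and KCNQ1OT1 (-1.25) lower, all of them genes of the imprinted region that holds CDKN1C.

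Pluripotency markers were high in both media, with summed log2 levels of 9.10 to 9.16 in MEF-CM and 8.59 to 9.38 in E8, and 2 of 8 (DNMT3B and SOX2) were higher in MEF-CM. Of 16 differentiation markers 7 were higher (ACTA2 by 6.13, AFP by 3.97 and TUBB3 by 1.92, then ALB, PAX6, TNNT2 and TH) and 3 lower (SOX17, MYH6 and ZIC1), with a summed level of 5.68 to 6.22 against 3.22 to 4.17. Of the lower ones, SOX17 was well above background on only 1 of 22 E8 arrays, MYH6 on 8 of 22, and ZIC1 in neither medium. Of 10 fibroblast markers 4 were higher, COL1A1 (2.11), PDGFRA (1.80), COL1A2 (0.97) and POSTN (0.78), and 4 lower, S100A4 (-1.14), COL3A1 (at least 1.38-fold), LUM and FAP, of which the last pair was not well above background in either medium. COL3A1, LUM, DCN and FAP were not well above background on any MEF-CM array. The summed level was 6.00 to 6.10 against 5.47 to 6.06 in E8, where it was mostly THY1 (mean 5.42). The share of probes well above background was 75.2 to 79.2% per array in MEF-CM and 57.1 to 77.1% in E8. The part of the differentiation markers and of this share in the inhibitors' values was not tested.

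In the differentiated culture, 5 of the 10 genes differed by 2-fold or more from the mean of the 11 H1 cultures in E8 with FGF and lay outside their range: CDKN1C and CDKN1A were higher, and CCNE1, CCNA2 and CCNB1 lower. By the same rule 12.7% of all probes were higher and 14.9% lower. This is 1 culture, so there is no test. It had no FGF, and its slide held no other culture. By the study's methods, embryoid bodies were kept in a medium with serum replacement and not in E8. Differentiation, lack of FGF, medium, time in culture and slide thus cannot be told apart. CDKN1C read 5.55 against 2.08 ± 0.34 (SD, n = 11), an 11.0-fold difference. CDKN1A read -1.77 against -4.41 ± 0.54, a 6.22-fold difference, with its probe well above background on 16 of 22 E8 arrays. The undifferentiated-label cultures of H1 in MEF-CM reached -1.60 for CDKN1A, above the differentiated culture, and 3.02 for CDKN1C, below it. CDKN1B read 0.52, above the E8 range of -0.77 to 0.01 by less than the rule asks (0.89 over the mean). CDKN2A differed by -0.26 at the brighter probe, while the dimmer p16 probe read -2.44 against -4.90 ± 0.39 (5.48-fold). That probe was well above background on only 11 of 22 E8 arrays, so its fold rests partly on background. In H1 in MEF-CM it read -2.88 to -1.86, a range that holds the differentiated culture.

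The 3 later cyclins were all lower. CCNE1 read 2.18 against 3.37 ± 0.37 (2.27-fold lower), CCNA2 0.29 against 1.33 ± 0.43 (2.06-fold lower) and CCNB1 2.99 against 4.06 ± 0.23 (2.11-fold lower), with CCNB1's dimmer probe 1.36-fold lower. With the normexp correction CCNA2 (-0.95) and CCNB1 (-0.999) did not reach 2-fold. The D cyclins did not meet the rule: CCND1 was 0.47 and CCND2 0.61 above the E8 mean and CCND3 at -0.32 from it. CCND1 lay within the E8 range (0.94 against -0.14 to 0.95), and CCND2 (3.06 against a highest value of 2.85) and CCND3 (-0.24 against a lowest value of -0.22) just outside it.

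**Figure D5:**
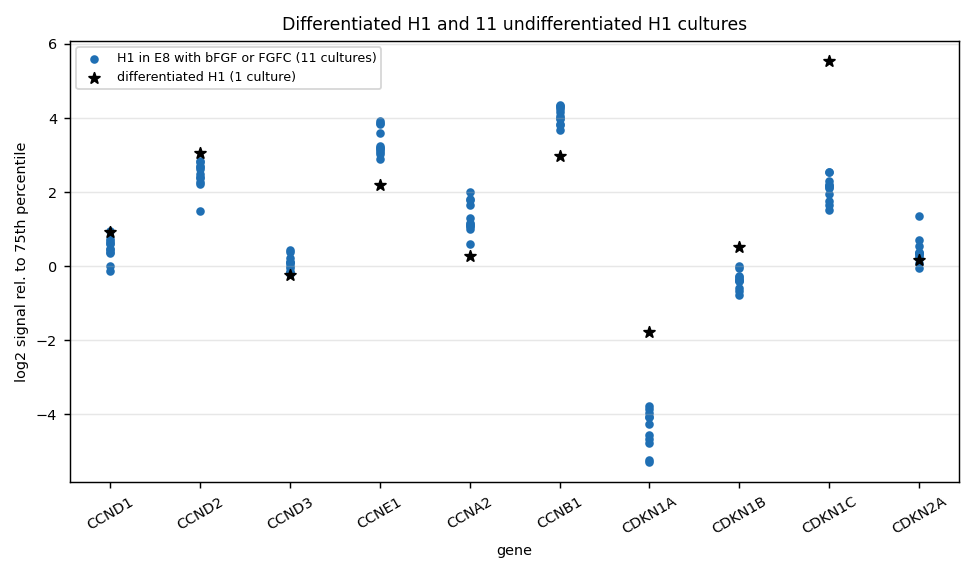
Log2 signal relative to the 75th percentile (y axis) of the 10 genes (x axis) in the differentiated H1 culture (star, 1 culture) and in 11 H1 cultures in E8 with FGF (circles). The star stands above the circles for CDKN1C (5.55) and CDKN1A (-1.77) and below them for CCNE1 (2.18), CCNA2 (0.29) and CCNB1 (2.99).

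The lists of related genes were counted by the same rule in this culture. Of the 4 other CDK inhibitors 3 were higher, CDKN2D (4.65-fold), CDKN2C (at least 18.8-fold, since it was not well above background in E8) and CDKN2B, for which no fold is given because it was well above background on only 3 of 22 E8 arrays. Of 18 S phase genes 5 were lower and none higher, with MCM5 (3.76-fold), CDC6 (3.02-fold) and CDT1 (2.98-fold) the lowest, and of 18 G2 and M phase genes 6 were lower and none higher, with BUB1B (3.53-fold), HMMR (2.74-fold) and BUB1 (2.64-fold) the lowest. Their list medians were -0.83 and -0.96, against -0.21 over all probes. CDK6 was 4.26-fold higher and CDC25A 2.64-fold lower. Of 13 pocket protein and E2F genes 4 were lower, of 9 turnover genes 3 lower and 1 higher, and of 6 other cyclins 2 higher, CCNG2 (4.07-fold) and CCNB3 (2.29-fold). Of 20 p53 target genes 5 were higher and 2 lower, with BTG2 (8.13-fold), an antiproliferative gene, the highest. In the imprinted region of CDKN1C, IGF2 was 10.60 and H19 6.86 higher on the log2 scale, and PHLDA2 (2.50-fold) and KCNQ1OT1 (2.37-fold) were also higher.

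Against H1 in E8, the markers of the culture went with its label. Of 8 pluripotency markers 7 were lower, all but SOX2 (summed log2 level 5.00 against 8.59 to 9.38). Of 16 differentiation markers 15 were higher, all but TNNT2 (5.82 against 3.22 to 4.17). H1 in MEF-CM had a summed level of 5.68 to 6.22 for the differentiation markers, a range that holds the differentiated culture. Its summed level of the pluripotency markers was 9.10 to 9.16. Of 10 fibroblast markers 9 were higher and THY1 lower, with a summed level of 7.81 against 5.47 to 6.06 in E8, where it was mostly THY1 (mean 5.42). The part of each cell type in the members' values was not tested. The share of probes well above background was 66.3 to 69.0% on its arrays.

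The genes whose signal followed the 2 widest-ranging members most closely were sought among 19464 probes over the 26 cultures other than the differentiated one, as a description over cultures that share lines, media and slides. For CCND2 these were VSNL1 (Pearson r = 0.918), CPNE8 (0.907) and NTSR1 (0.891). For CDKN1A they were DRAM1 (0.899), PHLDA3 (0.881) and ZMAT3 (0.878).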

How the data were processed

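Human pluripotent stem cells were measured on 54 arrays, 2 for each of 27 cultures, which were grouped by their labels. Per the file headers, the authors scanned 1-colour Agilent arrays with Feature Extraction 10.7.3.1, and the deposited intensity is its processed signal, on a linear scale, background-subtracted and not scaled between arrays. The deposited value table holds the same processed signals, also not scaled between arrays. As an alternative it was put through the same steps with outlier spots kept, so it is not a separate normalisation. From the intensities, control spots and outlier spots (266 to 623 per array) were dropped, signals were set to at least 1, log2 was taken, spots of a probe were averaged, and each array's 75th percentile over 42405 probes was subtracted. A probe was well above background where a share of 0.5 or more of its spots was. Probes were named by RefSeq accession (25711 probes), and the probe with the highest mean signal stands for a gene. Sequences are of RefSeq, GRCh38.p14.

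Comparisons used limma 3.58.1 in R 4.3.3 (lmFit and eBayes, two-sided), with p-values adjusted by Benjamini-Hochberg over all probes and a threshold of 0.05. The 4-day arms were fitted together, long cultures with the system as a block, and the differentiated culture and the comparisons within a system by a 2-fold rule without a test. The code was tested on simulated data. All 10 genes were examined in every comparison. From each other list up to 3 of the largest rises and falls that passed are named. The markers that passed are named in full, except for no FGF against FGFC, where they are left out. The members and lists were chosen with earlier results of these data known. The arms of an experiment share a passage in the sample titles, although 5 arrays of experiment 3 carry another passage number in a second label, and the residuals of the arms correlated by 0.08 to 0.32 (9 pairs), 1 of them under 0.1. Alternatives were the background correction (normexp, offset 50, on the median signals), the normalisation, the arrays and probes used, the block, the slide and leaving out each culture. In experiment 2 the labelled passage of the 4-day cultures was 59 and of the pre-culture 49.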

Additional observations from a re-analysis of the deposited data

Results flagged for a closer look

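CCND1 in H1 in E8 stood apart from the other systems in the difference of FGFC from bFGF in long culture: it was -0.28, against -0.01 to 0.07 in the other 4 systems. The gap to the nearest system took 0.79 of the whole range, above the critical value of 0.71 for 5 values. Chance sets about 1 in 20 groups apart in this way, and 20 were examined here. The bFGF and FGFC arrays of H1 in E8 after 30 days were also on different slides.

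For CDKN1C the same difference went opposite ways in the 2 kinds of medium. It was above 0 in each of the 3 MEF-based systems (mean 0.13) and below 0 in both E8 systems (mean -0.34), 0.46 apart. This difference was not tested, and each system had 1 culture per arm.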

How the results depend on the processing

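Of 128 counts of called members under an alternative, 112 stayed within 1.5 times the reported one and 16 did not, and no called member turned its direction. Among 1200 tested member values 10 lost and 6 gained a call. Without FGF against bFGF (1 of 10 called), the count was 0 with normexp and with the second array only, 2 with only the 2 arms compared, which added CCND1 (adjusted p = 0.0388), and 0 to 1 when a replicate was left out. Without FGF against FGFC (1 called), it was 0 with only the 2 arms and with the second array only, 2 with only bright probes, with quantile normalisation and with the slide as a random block, which all added CDKN1A (adjusted p = 0.0478, 0.0459 and 0.0361), and 0 to 1 when a replicate was left out. CDKN1A against bFGF passed in 11 of 15 alternatives (adjusted p = 0.00466 to 0.326), and CCND1 against FGFC in 11 of 15 (0.00531 to 0.342). With the experiment number as a replicate block the counts of these comparisons were 1 and 1, and 0 for FGFC against bFGF at 4 days, so the paired fit changed no call. For MEF-based media against E8, normexp gave 1 member instead of 0, and 403 probes instead of 0, while leaving out 253G1 called 45 probes and no member. In H1 in MEF-CM against E8, CDKN1A and CDKN1C passed in 14 of 14 alternatives (log2 differences 0.81 to 2.31 and 0.81 to 1.11) and CDKN2A in 12 of 14, and the count was 2 to 3 when a MEF-CM culture was left out. With the slide as a random block, chosen after seeing the data, it was 3. Within systems, normexp and quantile normalisation left 0 past 2-fold instead of 1. In the differentiated culture normexp left 3 instead of 5. Counts of called members were 0 in all leave-one-out fits of the other comparisons. Over all probes without FGF, the slide block called 7536 against bFGF instead of 5400 and 6998 against FGFC instead of 4575, the fit of only the 2 arms 9750 and 2553, and leaving out a replicate 1272 to 3557 and 974 to 3840. With quantile normalisation 9685 and with only bright probes 8282 probes were called between MEF-CM and E8 instead of 15071, and for the interaction 16 instead of 1 without H1 in E8. Normexp moved the median of all probes by -0.14 for long culture against pre-culture, by 0.17 for the media over systems and by -0.11 for the interaction, and quantile normalisation by 0.12 for both media comparisons. The cause of these changes was not tested. Signals close to background limit CDKN1A and the dimmer CDKN2A probe.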
